A study of Mus musculus with 6 samples.

Results

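Promoters of 10 genes were examined for histone H3K4me3 in a mouse T cell progenitor line and a mouse B cell progenitor line. The genes were Tal1, Lyl1, Lmo1, Lmo2, Hhex, Mef2c, Meis1, Gata1, Gata2 and Bcl11a, which encode transcription factors and cofactors of hematopoietic stem and progenitor cells, and several of which are oncogenes in T cell leukemia. They were chosen by name, not by a threshold on measured values, but with earlier results of these data known. They make up 10 of the 21951 protein-coding genes of the GENCODE M21 annotation on GRCm38. H3K4me3 chromatin immunoprecipitation with sequencing (ChIP-seq) was carried out in both lines, with 2 H3K4me3 libraries and 1 input library for each. Scid.adh.2C2 is a T-cell progenitor line that arose from a pro-T tumor of CB17-Prkdc scid mice, which carry a defect in a DNA repair kinase required for antigen receptor gene rearrangement. The other is a B-cell progenitor line transformed with Abelson virus, called the B progenitor line here, and its labels name no further genotype. No treatment was named for either line, and both were grown in RPMI medium with serum, gentamicin and β-mercaptoethanol. Each cell type was therefore represented by 1 transformed line, so that differences between T and B progenitors cannot be told apart from differences between these lines.

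Tal1 and Lyl1 are basic helix-loop-helix factors that pair with E proteins, and Lmo1 and Lmo2 are LIM-only adaptors that join such pairs to Ldb1 and to Gata factors in multiprotein complexes on DNA. This machinery is active in stem and progenitor cells and in the erythroid and megakaryocytic lineages, it is shut down as thymocytes commit to the T cell fate, and its ectopic activation is a recurrent event in T cell acute lymphoblastic leukemia. H3K4me3 is laid down around the start sites of active genes and of genes poised for activation, and broad stretches of it are often found at genes that define a cell's identity.

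For each line, the deposited data were 1 list of peaks that combined both replicates, filtered by the irreproducible discovery rate (IDR), a comparison of the peak ranks between replicates. Each peak had a fold enrichment over the background that the peak caller estimated with the input, and a −log10 q-value. The Scid.adh.2C2 list held 15513 peaks with a median fold enrichment of 20.3 and a median width of 1542 bp, and the B progenitor list held 19604 peaks with medians of 15.4 and 1590.5 bp. The lists gave no value per replicate and no read count, so that no spread between replicates could be given, the depth was unknown, and no difference between the lines was tested. Fold enrichments were not normalized between the lists and no difference in fold between the lines was read from them. An absent peak means that none passed the authors' thresholds. As a gauge from genes in general use, 74 of 76 ribosomal protein genes (97.4%) had a promoter peak in Scid.adh.2C2. In the B progenitor line, 71 of 76 (93.4%) had one. These shares do not show how often a more weakly marked promoter was missed. In bulk chromatin, a mark carried by fewer cells and a weaker mark in every cell cannot be told apart.

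The labelled cell types were checked with defining markers. Of 10 T cell progenitor markers, 9 had a promoter peak in Scid.adh.2C2 and 3 in the B progenitor line. The exception in Scid.adh.2C2 was Cd8a, and the highest markers among those marked in that line alone were Cd3e (41.5-fold), Gata3 (39.9-fold), Thy1 (38.6-fold) and Cd3g (38.0-fold). The Cd3g peak also held the TSS of the neighbouring Cd3d, which was marked in both lines. All 10 B cell progenitor markers had a promoter peak in the B progenitor line, with Cd79b at 29.0-fold, Cd79a at 27.9-fold and Ebf1 at 26.1-fold. Only Vpreb1 of these 10 had one in Scid.adh.2C2, in a peak that also covered the start site of Top3b.

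No promoter of the 10 genes was marked in Scid.adh.2C2, and 4 were marked in the B progenitor line. A promoter was called marked when a peak overlapped the window 2500 bp either side of any annotated transcription start site (TSS) of the gene by at least 1 bp. Over all protein-coding genes, 45.5% were marked in Scid.adh.2C2 and 48.2% in the B progenitor line. The 4 genes marked in the B progenitor line were Lyl1, Lmo2, Mef2c and Bcl11a, and all 4 were marked in that line alone, a pattern found for 5.96% of all genes. With the most upstream TSS of each gene only, the count fell to 2, Lyl1 and Bcl11a. The opposite pattern, marked in Scid.adh.2C2 alone, was found for 3.28% of all genes and for 0 of the 10. Tal1, Lmo1, Hhex, Meis1, Gata1 and Gata2 were marked in neither line, as were 48.6% of all genes. When peaks over the gene body were counted as well, Tal1 joined the 4 in the B progenitor line while the count in Scid.adh.2C2 stayed at 0, against 50.9% and 47.9% of all genes, respectively. In all, the B progenitor list held 10 peaks at these genes, 8 at promoters and 2 over gene bodies only. None of the 10 overlapped a peak of Scid.adh.2C2. This largely follows from the lack of Scid.adh.2C2 peaks at these promoters and gene bodies. It is not a separate difference between the lines. Over the whole B progenitor list, 39.3% of peaks overlapped no peak of Scid.adh.2C2.

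**Figure D1:**
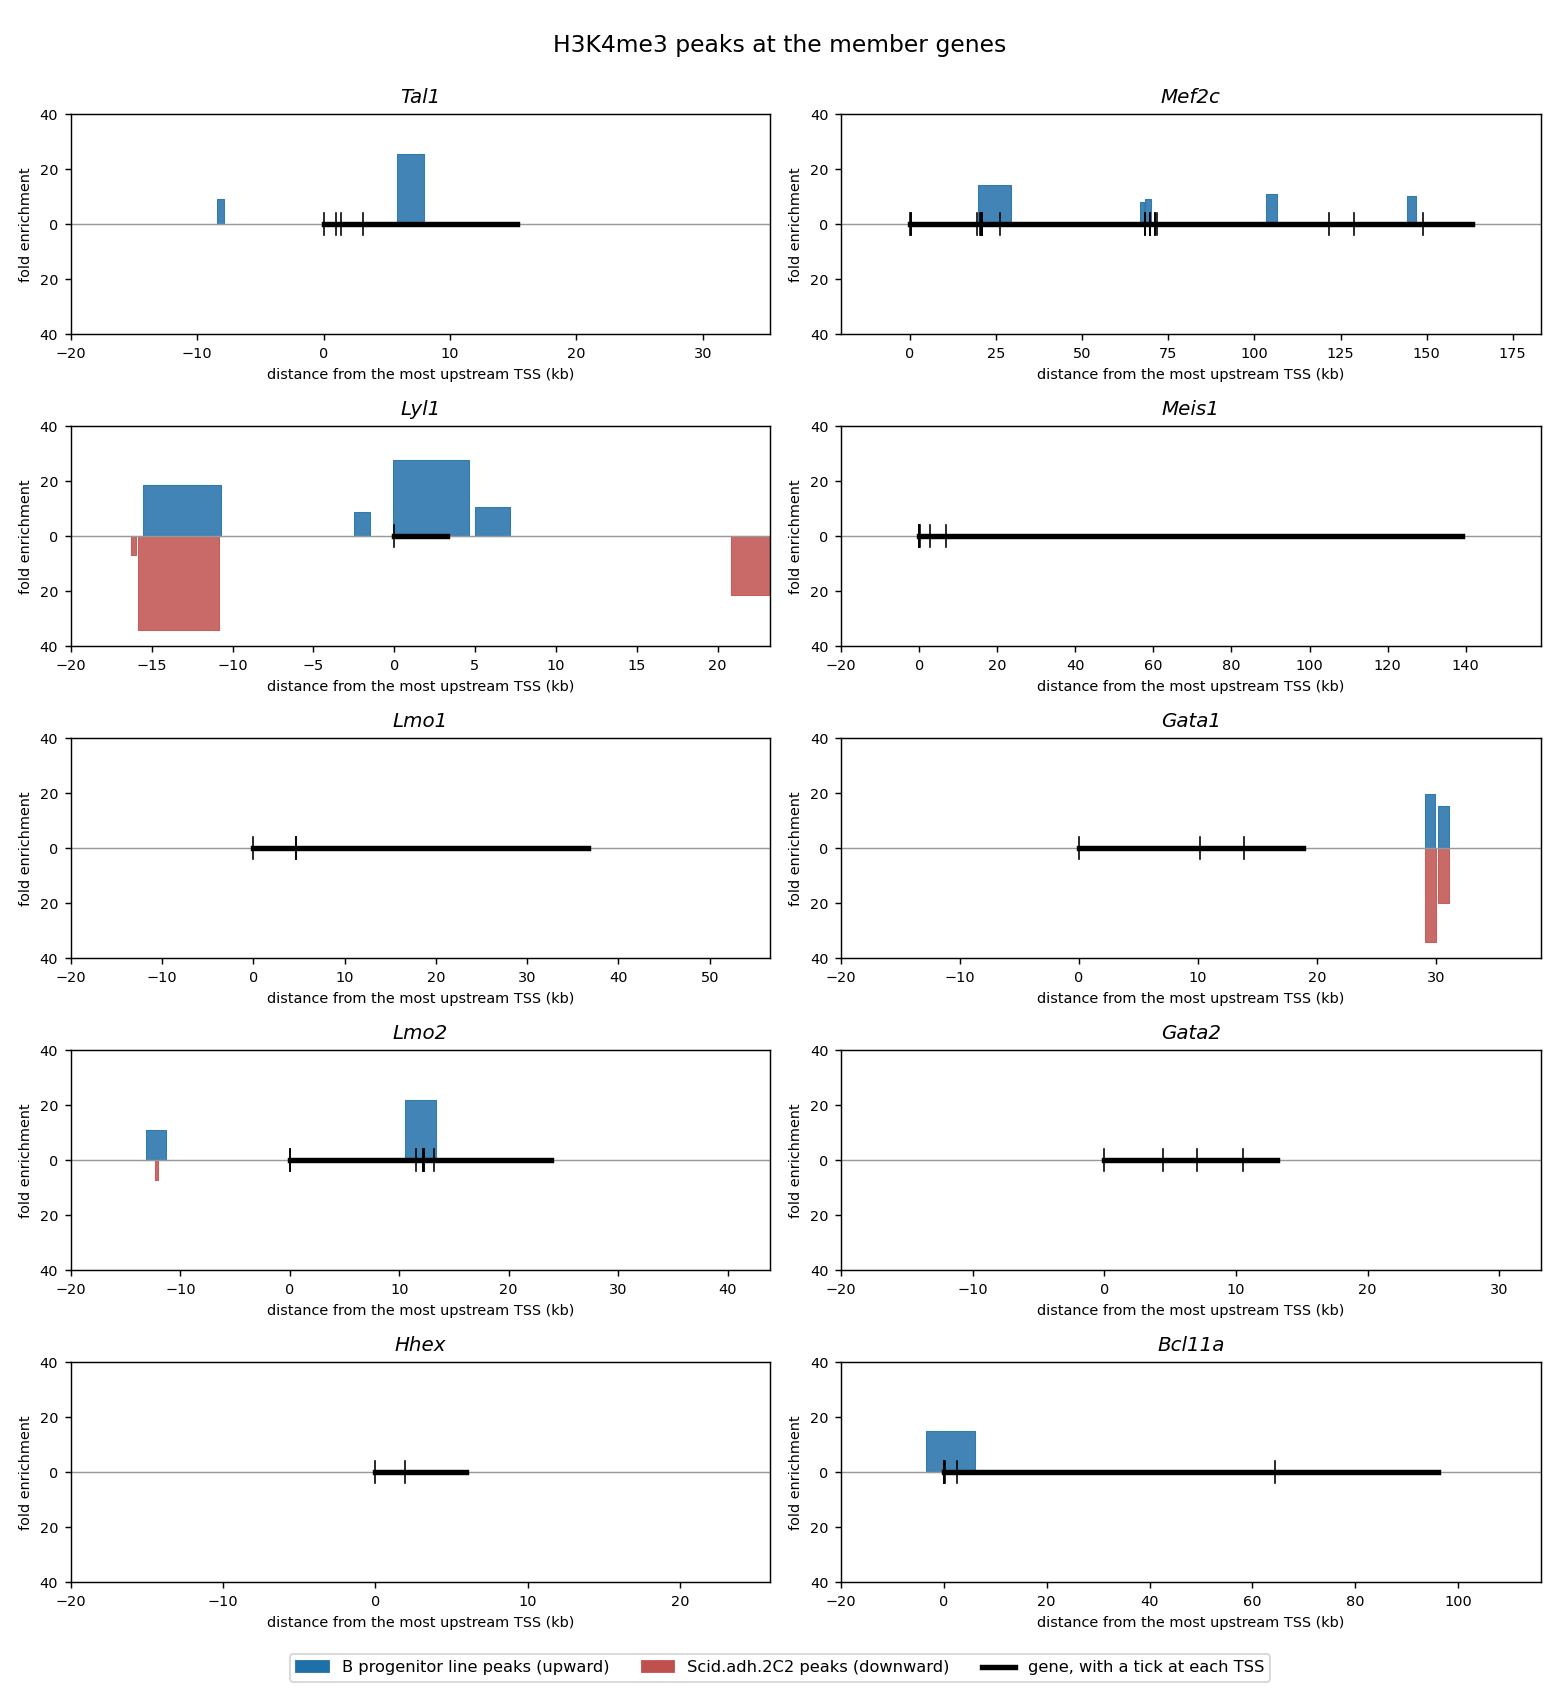
H3K4me3 peaks around the 10 genes, drawn in the direction of transcription. The horizontal axis is the distance from the most upstream TSS in kb, bars give the extent and fold enrichment of each peak (the B progenitor line upward, Scid.adh.2C2 downward, not normalized to each other), the black line is the gene and ticks are TSSs. Bars over the genes are from the B progenitor line only, at Tal1, Lyl1, Lmo2, Mef2c and Bcl11a.

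Tal1, the helix-loop-helix factor required for the formation of blood stem cells, lies at chr4:115056426-115071755 on the plus strand with 4 TSSs. None of its promoter windows held a peak in either line. In the B progenitor line, a peak of 2159 bp lay inside the gene at chr4:115062201-115064359, with a fold enrichment of 25.4 and a −log10 q of 134, rank 2326 by fold among the 19604 peaks. Its nearest edge was 2693 bp from the closest TSS, just outside the window, and its summit was 6718 bp downstream of the most upstream TSS. Of its length, 447 bp were exonic, and 446 bp of these were coding sequence. Peaks over the gene body with none at a promoter were found for 2.75% of all protein-coding genes in the B progenitor line. A further peak of 489 bp with 9.08-fold enrichment lay 7920 bp upstream of Tal1 at chr4:115048018-115048506, within the promoter window of no gene. In Scid.adh.2C2 the nearest peak was 54.4 kb upstream, at Stil, the neighbouring gene whose fusion to Tal1 by deletion is a classic lesion of T cell leukemia. The Stil promoter held peaks in both lines, at 29.6-fold and 27.5-fold in Scid.adh.2C2 and at 18.1-fold and 26.4-fold in the B progenitor line.

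Lyl1, the paralog of Tal1 that acts in early lymphoid progenitors, had the highest fold enrichment of the 10 genes. It is a short gene with 1 TSS at chr8:84701457-84704715, on the plus strand. In the B progenitor line, a peak of 4732 bp at chr8:84701359-84706090 contained its TSS and covered 100% of the gene, with a fold enrichment of 27.7 and a −log10 q of 179. It ranked 1199 by fold and 545 by width in the list. A lower peak of 1014 bp with 8.65-fold enrichment lay 1472 bp upstream at chr8:84698972-84699985, and this one contained a TSS of the neighbouring gene Trmt1, a tRNA methyltransferase gene. The main peak contained no TSS of another gene, although it reached into the windows of Trmt1 and of Nfix. In Scid.adh.2C2 the nearest peak was 10.9 kb upstream, at 34.0-fold, and covered TSSs of Nacc1 and Trmt1. The B progenitor list held an overlapping peak there at 18.8-fold. Further peaks around Lyl1, at Cacna1a, Ier2 and Nfix, overlapped between the lines, while others were not shared. Peaks at G430095P16Rik (21.5-fold) and Nfix (10.5-fold) were listed in Scid.adh.2C2 only, and another at Nfix (10.7-fold) in the B progenitor line only.

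Lmo2, the adaptor that bridges Tal1 or Lyl1 to Ldb1 and Gata factors and a common target of activating rearrangements in T cell leukemia, was marked at its internal promoters only. The gene lies at chr2:103957986-103981878 on the plus strand and has 8 TSSs. In the B progenitor line, a peak of 2834 bp at chr2:103968504-103971337 contained 6 of them, those 11542 to 13193 bp downstream of the most upstream TSS. It had a fold enrichment of 22.0 and a −log10 q of 104, and ranked 4652 by fold and 3218 by width. The other 2 TSSs, at the 5′ end of the gene, were unmarked. In Scid.adh.2C2 the nearest peak was 12038 bp upstream of the gene at chr2:103945671-103945948, with a width of 278 bp and 7.05-fold enrichment. It fell inside a wider B progenitor peak of 1829 bp and 10.9-fold enrichment at chr2:103944828-103946656. This upstream element was thus the one peak near Lmo2, outside all promoter windows, that was listed in both lines.

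Lmo1, a close relative of Lmo2 that is normally expressed in the nervous system and activated in T cell leukemia by translocation, lies at chr7:109138572-109175207 on the minus strand with 3 TSSs. It had no peak at a promoter or over its body in either line. The nearest peak was 234 kb away in Scid.adh.2C2, at Eif3f, and 106 kb upstream in the B progenitor line, where a peak of 8.44-fold enrichment lay in no promoter window.

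Neither Gata gene was marked. Gata1, the master factor of erythroid and megakaryocytic differentiation, lies at chrX:7959260-7978071 on the minus strand with 3 TSSs. The peaks nearest to it lay 15.2 kb downstream of its closest TSS in both lines, at Hdac6, with fold enrichments of 33.9 in Scid.adh.2C2 and 19.7 in the B progenitor line. Gata2, which maintains stem and early progenitor cells, lies at chr6:88193891-88207032 on the plus strand with 4 TSSs. Its nearest peaks were 107 kb upstream in both lines, at Rpn1, a gene of protein glycosylation, at 31.0-fold in Scid.adh.2C2 and 27.0-fold in the B progenitor line. Both Gata genes thus lacked a peak, while Hdac6 near Gata1, and Rpn1 more than 100 kb from Gata2, had one in both lists. Why the Gata genes lacked a peak was not tested.

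The homeobox genes were unmarked as well. Hhex, a homeobox repressor used in hematopoietic progenitors and in early B cell development, lies at chr19:37434810-37440731 on the plus strand with 2 TSSs. Its nearest peaks lay 57.3 kb downstream in both lines and overlapped each other, with 485 bp and 7.15-fold enrichment in Scid.adh.2C2 and 2325 bp and 12.3-fold enrichment in the B progenitor line. Meis1, the homeobox partner of Hox and Pbx proteins in stem cells and in leukemia, lies at chr11:18879817-19018985 on the minus strand with 7 TSSs. It was the most isolated of the 10 genes, with the nearest peak 900 kb upstream in each line. That peak lay in no promoter window and had 5.60-fold enrichment in Scid.adh.2C2 and 23.0-fold in the B progenitor line.

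**Figure D2:**
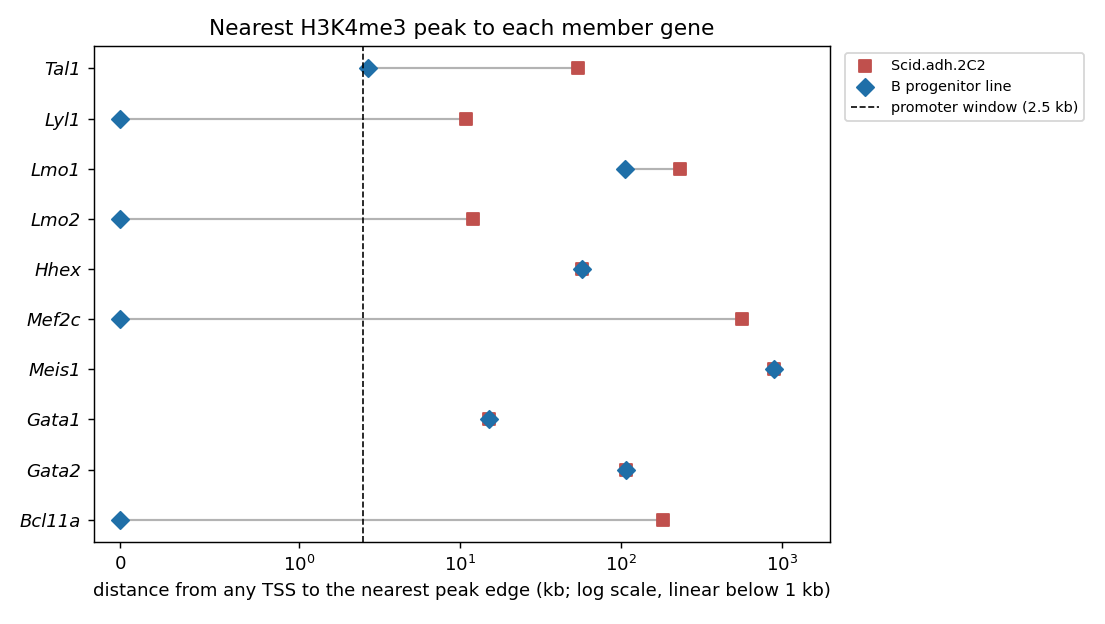
Distance in kb from any TSS of each gene to the edge of the nearest H3K4me3 peak, on a scale that is logarithmic above 1 kb and linear below it. Squares are Scid.adh.2C2, diamonds the B progenitor line, and the dashed line is the edge of the promoter window. Lyl1, Lmo2, Mef2c and Bcl11a lie at 0 in the B progenitor line, Tal1 lies just beyond the window at 2.69 kb, and for Hhex, Meis1, Gata1 and Gata2 both symbols coincide.

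Mef2c, a MADS-box factor that supports lymphoid priming and early B cell development and is activated in immature T cell leukemia, held the largest number of peaks. The gene spans chr13:83504034-83667080 on the plus strand and has 27 annotated TSSs. In the B progenitor line, 4 peaks touched its promoter windows and 1 lay over the gene body only, and together they covered 18155 bp or 11.1% of the gene. The widest, at chr13:83523842-83533280, measured 9439 bp, contained 11 TSSs and had a fold enrichment of 14.3 with a −log10 q of 132. It ranked 17 by width among the 19604 peaks, but only 10699 by fold.

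The remaining Mef2c peaks were lower and narrower. A peak of 1596 bp with 9.20-fold enrichment at chr13:83572307-83573902 contained another 6 TSSs, and a peak of 1351 bp with 8.11-fold enrichment lay directly upstream at chr13:83570747-83572097, 251 bp from the nearest TSS. A peak of 2661 bp with 10.3-fold enrichment at chr13:83648393-83651053 reached a promoter window with its edge 1835 bp from a TSS, while its summit lay outside, and a peak of 3108 bp with 11.1-fold enrichment at chr13:83607358-83610465 lay in the body only. In total, 22 of the 27 TSSs were marked and 17 were inside a peak. The 3 most upstream TSSs were unmarked, as were the most upstream ones of Lmo2. In Scid.adh.2C2 the nearest peak was 569 kb away, at Tmem161b.

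Bcl11a, a zinc finger repressor needed for B lymphocyte development and known for silencing fetal globin genes, was marked across its 5′ end in the B progenitor line. The gene lies at chr11:24078056-24174123 on the plus strand with 6 TSSs. A peak of 9498 bp at chr11:24074566-24084063 contained 5 of them, with a fold enrichment of 15.0 and a −log10 q of 120, and ranked 16 by width and 10099 by fold. The peak also covered TSSs of the noncoding genes A830031A19Rik and Gm12063, so that it cannot be assigned to Bcl11a alone. In Scid.adh.2C2 the nearest peak was 182 kb upstream, at Papolg.

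Among the 4 marked genes, the main peaks of Lyl1 and Lmo2 had fold enrichments of 27.7 and 22.0 and widths of 4732 and 2834 bp. Those of Mef2c and Bcl11a were lower, at 14.3 and 15.0, and wider, at 9439 and 9498 bp. The median of the highest fold per gene was 18.5 over the 4 genes and 21.7 over all protein-coding genes marked in the B progenitor line, and the median width of that peak was 7085.5 bp against 2278 bp. The order of the 4 genes depended on the measure used. By fold they stood at percentiles 93.9 (Lyl1), 76.3 (Lmo2), 48.5 (Bcl11a) and 45.4 (Mef2c) of the list, and by −log10 q at percentiles 97.7 (Lyl1), 79.4 (Mef2c), 71.7 (Bcl11a) and 61.8 (Lmo2). With 4 genes and no replicate values these are descriptions, and no difference between the genes was tested.

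**Figure D3:**
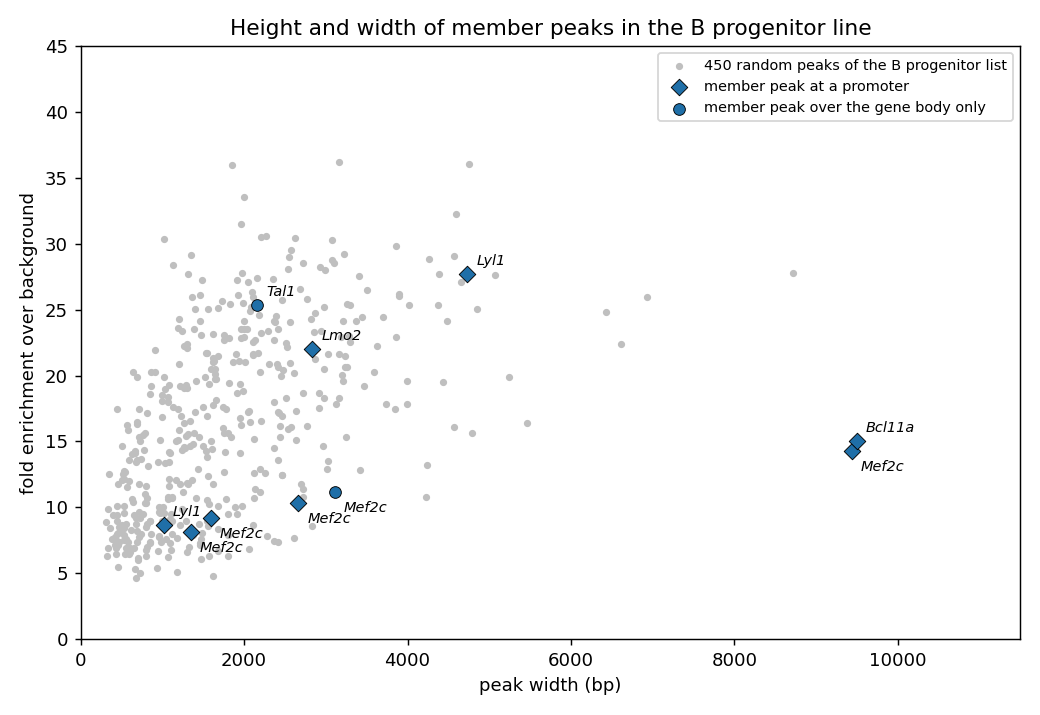
Fold enrichment over background against peak width in bp for the peaks of the 10 genes in the B progenitor line (diamonds, promoter peaks; circles, peaks over the gene body only) and for 450 randomly drawn peaks of the same list (grey). The widest Mef2c peak and the Bcl11a peak sit at 9439 and 9498 bp with folds of 14.3 and 15.0, while Lyl1 reaches 27.7-fold at 4732 bp.

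Peaks farther from the genes were counted as well. Within 100 kb of the 10 genes, and outside their own promoters and bodies, Scid.adh.2C2 had 22 peaks and the B progenitor line had 37. In each line 20 of these lay in the promoter window of another gene. The remaining 2 peaks of Scid.adh.2C2 were those upstream of Lmo2 and downstream of Hhex, and both overlapped a B progenitor peak. The remaining 17 peaks of the B progenitor line included 5 downstream of Hhex, 3 upstream of Lmo2 and 3 around Bcl11a. The Hhex group had fold enrichments of 12.3, 7.79, 7.24, 8.00 and 4.20 in the order of distance from the gene, and the Lmo2 group had 8.47, 4.15 and 10.9 at 62.9, 39.6 and 11.3 kb upstream. Of the Hhex and Lmo2 groups, the first peak at Hhex and the last at Lmo2 overlapped a Scid.adh.2C2 peak, and the others did not. Over the whole lists, 24.0% of Scid.adh.2C2 peaks and 29.7% of B progenitor peaks lay in no promoter window. Of those, 62.4% and 76.6%, respectively, had no overlapping peak in the other list, so that a peak of this kind listed in 1 line only was the common case in both lists. Of all 22 Scid.adh.2C2 peaks near the genes, 3 had no overlapping B progenitor peak, against 25.6% of its whole list, and all 3 lay near Lyl1. Of the 37 B progenitor peaks, 18 had no overlapping Scid.adh.2C2 peak, against 39.3% of that list. Lmo1, Meis1 and Gata2 had no peak within 100 kb in either line, 3 of 10 genes, against 20.6% of all protein-coding genes.

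The promoter sequences were examined because CpG-rich promoters carry H3K4me3 in many cell types. RefSeq promoters of 300 bp, from 250 bp before to 50 bp after the start, were on hand for 9 of the 10 genes, with 14 promoters in all. Lmo2 had no entry. A promoter was called CpG-rich when its observed over expected CpG ratio was at least 0.6 and its GC content at least 50%, which held for 45.1% of 21263 promoters of protein-coding genes. Of the CpG-rich promoters, 72.3% were marked in Scid.adh.2C2 and 75.0% in the B progenitor line, and of the others 21.1% and 23.6% were, respectively. Among the 10 genes, 8 promoters of 5 genes were CpG-rich, those of Tal1, Lmo1, Hhex, Gata2 and Bcl11a. Of these 5 genes only Bcl11a was marked in the B progenitor line, and none was marked in Scid.adh.2C2. The CpG ratio was 0.81 at Bcl11a, 0.90 and 0.76 at the Gata2 promoters, 0.88 and 0.95 at those of Lmo1, 0.88 at Hhex, and 0.65 and 0.76 at those of Tal1. Lyl1, which carried the highest peak, had a ratio of 0.26, below the median of 0.57 over all promoters. The RefSeq promoters of Mef2c had ratios of 0.11, 0.61 and 0.23, and the latter 2 were marked in the B progenitor line. Meis1 and Gata1 had ratios of 0.59 and 0.17. Of the 6 genes marked in neither line, 4 thus had a CpG-rich promoter, and Meis1 and Gata1 had none. Tal1, among these 4, had a B progenitor peak 2693 bp from a TSS and counted as marked there with a window of 5000 bp. The division by CpG content was chosen after the marks had been seen.

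**Figure D4:**
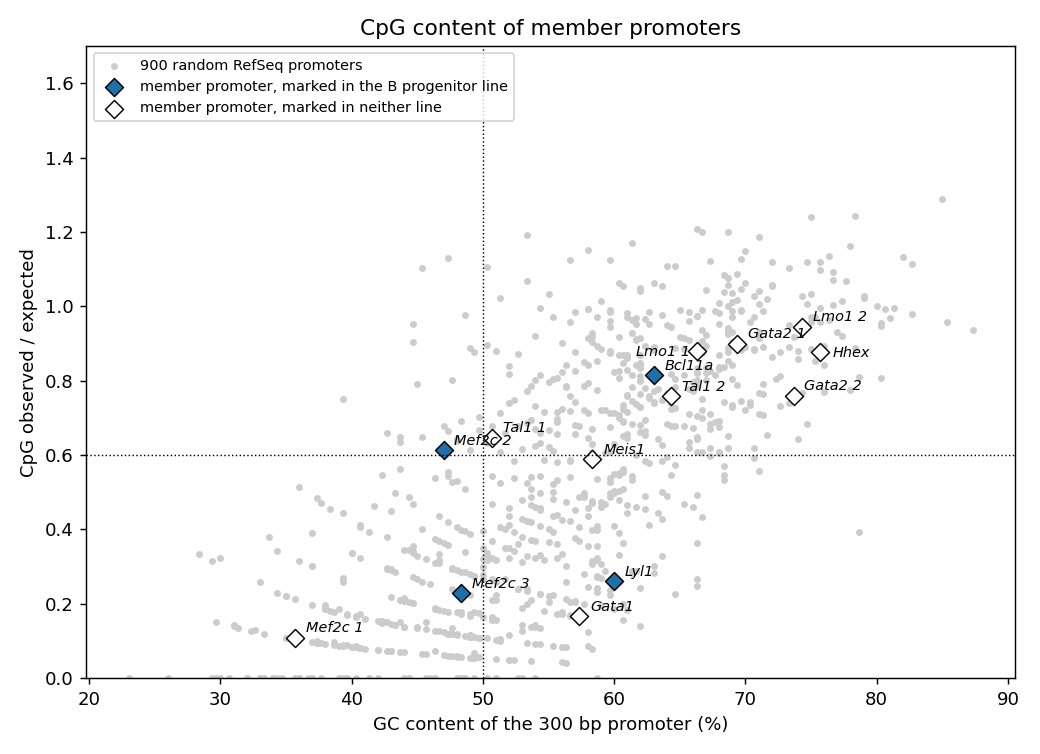
CpG observed over expected ratio against GC content (%) of the RefSeq promoters of 9 of the genes (diamonds, filled where marked in the B progenitor line) and of 900 randomly drawn promoters (grey). Dotted lines are the limits of 0.6 and 50%. Open diamonds of Gata2, Lmo1, Hhex and Tal1 lie in the CpG-rich quadrant, and the filled Lyl1 diamond lies below it at 0.26.

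The difference in CpG content can be read from the bases upstream of the start, trimmed so that no annotated UTR is included, shown here for a marked promoter that is CpG-poor (Lyl1), a marked one that is CpG-rich (Bcl11a) and 3 unmarked ones that are CpG-rich (Gata2, Lmo1 and Tal1). Sequences are from RefSeq on GRCm38.p6 and run 5′ to 3′ on the strand of the gene, with CpG dinucleotides in capitals. They are chr8:84701207-84701456 (plus strand, 5 CpGs) for Lyl1, chr11:24080445-24080669 (plus strand, 12 CpGs) for Bcl11a, chr6:88193641-88193890 (plus strand, 22 CpGs) for Gata2, chr7:109175208-109175457 (minus strand, 17 CpGs) for Lmo1 and chr4:115057561-115057810 (plus strand, 16 CpGs) for the internal promoter of Tal1.
Lyl1: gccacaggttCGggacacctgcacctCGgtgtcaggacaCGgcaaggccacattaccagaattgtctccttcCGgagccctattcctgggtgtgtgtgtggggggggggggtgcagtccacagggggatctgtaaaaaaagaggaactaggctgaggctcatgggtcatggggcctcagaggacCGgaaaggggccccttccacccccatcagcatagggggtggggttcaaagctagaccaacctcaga
Bcl11a: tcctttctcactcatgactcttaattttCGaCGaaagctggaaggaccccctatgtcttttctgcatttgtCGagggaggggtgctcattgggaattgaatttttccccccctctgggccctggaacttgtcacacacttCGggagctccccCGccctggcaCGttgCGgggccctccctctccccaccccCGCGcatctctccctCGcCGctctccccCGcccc
Gata2: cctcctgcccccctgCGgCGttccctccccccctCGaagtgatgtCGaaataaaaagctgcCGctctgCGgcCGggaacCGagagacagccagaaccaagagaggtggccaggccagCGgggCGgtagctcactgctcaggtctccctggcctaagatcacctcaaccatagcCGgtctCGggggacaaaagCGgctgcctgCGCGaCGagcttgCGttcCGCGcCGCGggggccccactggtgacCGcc
Lmo1: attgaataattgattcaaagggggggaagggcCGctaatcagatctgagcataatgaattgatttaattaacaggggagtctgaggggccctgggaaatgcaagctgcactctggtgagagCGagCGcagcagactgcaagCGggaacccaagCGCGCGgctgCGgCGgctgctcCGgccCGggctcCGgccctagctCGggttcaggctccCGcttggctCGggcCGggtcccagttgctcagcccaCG
Tal1: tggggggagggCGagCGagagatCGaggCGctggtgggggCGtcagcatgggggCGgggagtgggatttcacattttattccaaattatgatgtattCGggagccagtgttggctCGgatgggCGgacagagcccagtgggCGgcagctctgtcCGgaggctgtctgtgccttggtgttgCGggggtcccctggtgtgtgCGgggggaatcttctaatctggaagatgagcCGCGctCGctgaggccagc

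Short motifs were counted on both strands of the 300 bp promoters, each on its own, so that matches of different motifs may overlap. The GC box GGGCGG was present in promoters of Tal1, Lmo1, Hhex, Mef2c, Gata1, Gata2 and Bcl11a, and in 46.2% of all promoters. The Ets core CCGGAA was found in Lyl1, with 2 matches, and in Meis1, with 1, against 18.7% of all promoters. The GATA motif AGATAA occurred only in the upstream promoter of Tal1, with 9.65% of all promoters holding it, and the variant TGATAA, present in 7.60%, occurred in none of the 14. The E-box CAGATG, preferred by Tal1 dimers, was found in the upstream Tal1 promoter and in 1 Mef2c promoter (14.6% of all promoters). The E-box CAGCTG was found in 1 Gata2 promoter (15.6%), and the Runx motif TGTGGT in Meis1 (15.0%). These matches describe letters in the windows and do not show that a factor was bound.

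Most of the partners with which Tal1 and Lmo2 assemble were marked in both lines. Of 15 genes for complex partners, 13 were marked in Scid.adh.2C2 and 14 in the B progenitor line, and the same 13 genes were shared. Ldb1, the bridging factor of the complex, had 34.6-fold enrichment in Scid.adh.2C2 and 27.4-fold in the B progenitor line. The latter peak also held a TSS of Pprc1. Ssbp4, of a family that binds and stabilizes Ldb1, had 35.6-fold in Scid.adh.2C2, in a peak that held a TSS of Gm45546 and none of its own, and 19.7-fold in the B progenitor line. Gfi1b, a repressor of the erythroid and megakaryocytic lineages, was marked in the B progenitor line only, at 16.2-fold, and the Ets factor Erg was marked in neither. These counts make 86.7% and 93.3% of the list, beside 45.5% and 48.2% of all protein-coding genes, and the differences were not tested.

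Paralogs of the 10 genes were considered next. Of 15 paralogs, 6 (40%) were marked in Scid.adh.2C2 and 5 (33.3%) in the B progenitor line. The shares of all protein-coding genes were 45.5% and 48.2%, respectively, and the differences were not tested. Gata3, the Gata factor of T cells, and Bcl11b, the paralog of Bcl11a required for T cell commitment, were marked in Scid.adh.2C2 only, at 39.9-fold and 33.2-fold. Each line thus carried the mark on 1 gene of the Bcl11 pair, although the Bcl11a peak also covered TSSs of noncoding genes and cannot be assigned to Bcl11a alone. Bcl11a had a peak of 9498 bp in the B progenitor line, rank 16 by width, and Bcl11b one of 9793 bp in Scid.adh.2C2, rank 3 of 15513. Lmo4, at 27.6-fold and 28.6-fold, and Mef2d, at 34.2-fold and 27.8-fold, were marked in Scid.adh.2C2 and the B progenitor line, respectively. Meis3 was marked in the B progenitor line only, at 7.73-fold. The 8 unmarked paralogs were Tal2, Lmo3, Meis2, Gata4, Gata5, Gata6, Nhlh1 and Nhlh2.

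**Figure D5:**
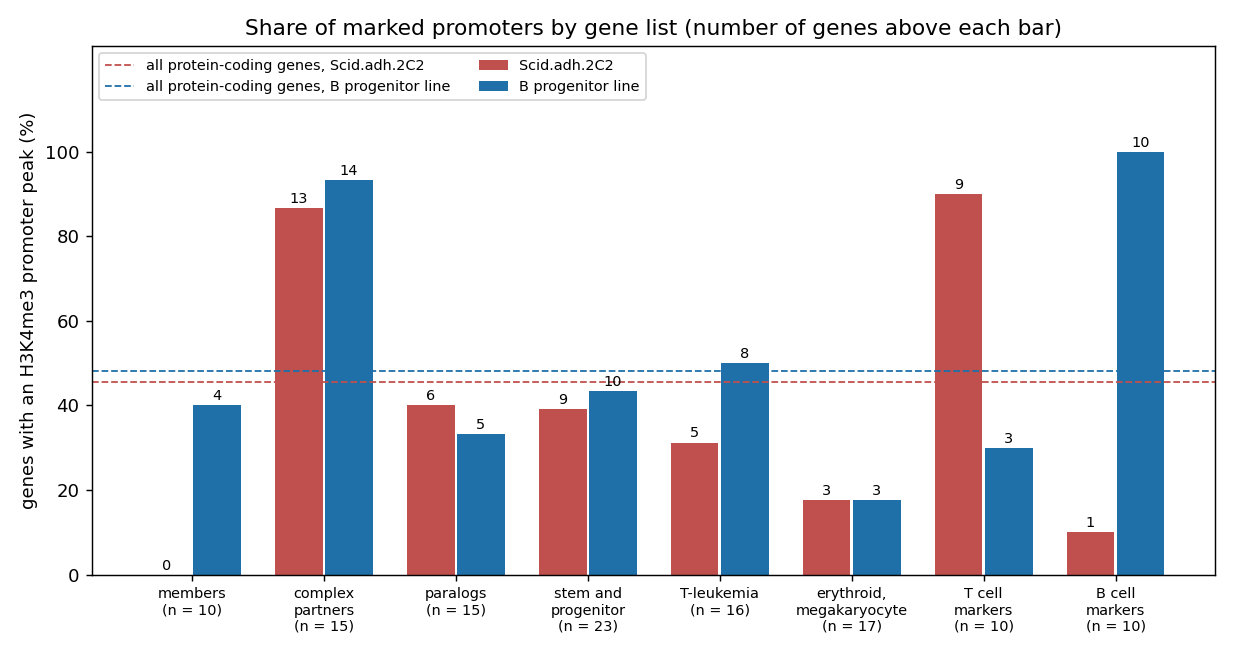
Share of genes (%) with an H3K4me3 promoter peak in Scid.adh.2C2 (red) and the B progenitor line (blue), for the 10 genes ("members") and for 7 other gene lists, with the number of marked genes above each bar and the share over all protein-coding genes as dashed lines. The 10 genes stand at 0 in Scid.adh.2C2 and 4 in the B progenitor line, beside 13 and 14 of 15 complex partners.

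Of 23 other regulators and receptors of stem and progenitor cells, 9 (39.1%) were marked in Scid.adh.2C2 and 10 (43.5%) in the B progenitor line, 8 of them in both. These shares lay near those of all protein-coding genes. Bmi1, a Polycomb gene of stem cell self-renewal, had 38.2-fold enrichment in Scid.adh.2C2, in a peak that held the TSS of Commd3 and not its own, and 19.8-fold in the B progenitor line. The RNA-binding protein gene Msi2 had 36.4-fold and 30.7-fold. The zinc finger repressor Gfi1 was marked in Scid.adh.2C2 only, at 29.5-fold, and Mycn (25.0-fold) and Hoxa7 (9.41-fold) in the B progenitor line only. The 12 unmarked genes included the stem cell regulators Mecom, Hlf, Prdm16 and Hoxa9, the receptor gene Kit, and Cd34.

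Of 16 further oncogenes of T cell leukemia, 5 (31.25%) were marked in Scid.adh.2C2 and 8 (50.0%) in the B progenitor line, beside 45.5% and 48.2% of all protein-coding genes. The 5 were marked in both lines and included Abl1 (32.6-fold in Scid.adh.2C2 and 21.4-fold in the B progenitor line) and Nup214 (32.1-fold and 25.4-fold), which are broadly expressed genes that become oncogenic through fusion. Myc, at 31.9-fold, Mycn, at 25.0-fold, and the cyclin gene Ccnd2, at 20.4-fold in a peak that contained none of its TSSs, were marked in the B progenitor line only. The 8 unmarked genes were Tlx1, Tlx3, Tal2, Lmo3, Nkx2-1, Olig2, Hoxa9 and Hoxa10, most of them known from ectopic activation in this leukemia. The difference between the lines was not tested.

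Erythroid and megakaryocytic genes, from lineages in which Tal1, Lmo2 and Gata1 are active, were mostly without a mark. Whether each of them is a target of these factors was not examined. Of 17 such genes, 3 (17.6%) were marked in each line, beside 45.5% and 48.2% of all protein-coding genes, and 13 in neither, among them the globin genes Hba-a1 and Hbb-bs and the heme synthesis gene Alas2. Klf1 (18.6-fold in Scid.adh.2C2 and 13.8-fold in the B progenitor line) and Nfe2 (16.6-fold and 6.90-fold) were marked in both, although the Klf1 peaks did not contain its TSS. Epor was marked in Scid.adh.2C2 only, at 8.84-fold.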

How the data were processed

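H3K4me3 ChIP-seq was analysed from the peak lists of the T cell progenitor line Scid.adh.2C2 and an Abelson-transformed B progenitor line. According to the submitters' processing notes and the methods of the study, the authors trimmed reads with Trim Galore 0.6.7, mapped them to mm10 (GRCm38) with Bowtie2 2.4.4, called narrow peaks against the input with MACS2 2.2.7.1 and kept the optimal IDR set of both replicates. The deposited lists give per peak an IDR score, a fold enrichment (a linear ratio over background), a −log10 p-value, a −log10 q-value and the summit position, which were used without change. TSSs and gene bodies were taken from GENCODE M21 on GRCm38, the build of the peaks. A promoter was marked when a peak overlapped 2500 bp either side of any TSS by at least 1 bp, and shared peaks were counted for each gene. With 1 combined list per line, no test between the lines was made, and the input libraries entered only through the peak calling. The code was tested on simulated peaks.

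All 10 genes were named with their peaks. From the other lists, up to 4 genes with the highest fold among those marked in 1 line only, and up to 2 among those marked in both, ranked by the higher of their folds in the lists although these are not normalized to each other, were named with values for each line. Some of these genes are not reported here. Members, lists and rules were chosen with earlier results of these data known. Ahsp was not in the annotation and left out. Alternatives were other promoter windows, stricter peak sets, equal peak numbers, summit positions, other TSS sets, ranking by −log10 q, merged peaks and, chosen after seeing the data, gene bodies added to promoters. Python 3.11.15, numpy 2.4.6 and matplotlib 3.10.9 were used.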

Additional observations from a re-analysis of the deposited data

How the results depend on the processing

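No promoter of the 10 genes was marked in Scid.adh.2C2 under any alternative run. In the B progenitor line the count of 4 stayed the same with a window of 1000 bp, a fold minimum of 10, only the top IDR score of 1000, lists cut to the same length, the summit inside the window, or TSSs of protein-coding transcripts alone. It was 5 with a window of 5000 bp or with gene bodies added, because Tal1 joined. With the most upstream TSS of each gene only, 2 genes were marked in the B progenitor line, and the same 2 in the B progenitor line alone, since the peaks of Lmo2 and Mef2c lie at internal TSSs while Lyl1 and Bcl11a kept theirs. Of 126 alternative counts for the 10 genes and the lists of complex partners, paralogs, stem and progenitor regulators, leukemia oncogenes and erythroid genes, 124 were within 1.5 times the main count. The T and B cell marker lists were not run under the alternatives. The covered promoter width changed in 14 of 34 alternative values. No paired analysis was possible because each list combines the replicates, and for the same reason no replicate could be left out. The depth of the libraries is unknown, so that a weak mark below the threshold cannot be told apart from an absent one.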

Other observations

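The Mef2c and Bcl11a peaks were among the 20 widest of the B progenitor list. These also included a peak of 12593 bp in no promoter window, at chr2:180432560-180445152, and peaks at Slc7a5, an amino acid transporter gene (13580 bp), Lef1, a factor of early lymphocytes (13050 bp), and Irf8, a regulator of B cell and myeloid development (10000 bp), and also peaks at the glycosylation genes Mgat1 (11227 bp) and Man1a (10200 bp), the lipid kinase gene Pik3cd (9801 bp) and the retinoic acid receptor gene Rara (9567 bp). In Scid.adh.2C2 the widest peak, of 11569 bp at chr12:106574172-106585740, lay in no promoter window, and the next ones included Tcf7 (10029 bp), Bcl11b (9793 bp) and Gata3 (9343 bp), which act in T cell commitment, and Nrarp (8806 bp) and Dtx1 (8548 bp), which are targets of Notch signaling, beside Tnrc18 (8300 bp) and a peak of 9117 bp that held TSSs of both Chdh, a gene of choline metabolism, and the cytokine receptor gene Il17rb. Setd1b, which encodes an H3K4 methyltransferase, was among the 20 widest in both lists, with 9229 bp in Scid.adh.2C2 and 9192 bp in the B progenitor line. Ssbp3, a stabilizer of the Ldb1 bridge in the Tal1 complex, had a peak of 7480 bp in Scid.adh.2C2 and one of 3022 bp in the B progenitor line. These genes were chosen after their values had been seen.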
